A study of Homo sapiens with 4 samples.

Results

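The dual-specificity phosphatases, Sprouty and SPRED genes that restrain ERK signalling were followed in Hep3B cells, a human hepatocellular carcinoma line, after knockdown of UNC50, a conserved membrane protein of the Golgi apparatus. All probes other than controls whose gene name on the array was DUSP4, DUSP5, DUSP6, DUSP7, SPRY1, SPRY2, SPRY4, SPRED1, SPRED2 or SPRED3 were taken, which gave 12 probes of 10 genes among the 42405 probes of 34809 genes on the array. Of these, 10 probes of 9 genes were kept after a filter on dim probes that left 25149 genes in all, and SPRED3 was the member that did not pass. The 4 samples were Hep3B cells that carried a hairpin plasmid and were selected with 1 µg/ml puromycin. The control cells held the mock hairpin shR-MOCK, and the knockdown cells held shR-467, shR-554 or shR-749, which target the UNC50 transcript at bases 467, 554 and 749. Each was hybridised to 1 array, so the 3 hairpins stood as the replicates of the knockdown and the control had no replicate. Nothing in the labels says that cultures were repeated, and the RNA came from a selected population of cells for each plasmid, so differences between hairpins also hold differences between cultures. The aim of the arrays was to find genes that follow the amount of UNC50, and EGFR, whose main output is ERK, was the receptor that the study went on to examine.

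ERK is the last kinase of the cascade that runs from receptor tyrosine kinases through RAS, RAF and MEK. It switches on genes whose products turn the cascade down again, so their transcripts are widely read as a record of recent ERK activity. Dual-specificity phosphatases remove the activating phosphates from ERK itself, whereas Sprouty and SPRED proteins act upstream, on RAS and RAF. DUSP6 and SPRY4 are among the transcripts most often used for this purpose in tumour cells.

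The sequences below show what the arrays read for the genes on which the results turn. The first 30 bases of each 60-base probe are given in lower case, 5′ to 3′, with hg19 positions from the array annotation. The DUSP6 probe starts on the minus strand of chr12:89742174-89742203, and the 2 SPRY4 probes start on the minus strand of chr5:141690601-141690630 and chr5:141694517-141694546, 3856 bases apart over their full lengths.
DUSP6 probe: gcttgtgttgtcgcaaaggggataatctgg
SPRY4 main probe: tcgccatcatacctcgagtgaggcccagct
SPRY4 second probe: tgaagaccagccatgtggagaatgactaca

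The windows of 250 bases before the gene starts are shown because DUSP6 and SPRY4 stood lowest together, and a window of SPRY2, a relative of SPRY4 whose signal stayed near the mock array, is set beside them. They come from RefSeq on GRCh38.p14 and are in the direction of the gene. DUSP6 lies on the minus strand at chr12:89352502-89352751, SPRY4 on the minus strand at chr5:142324248-142324497 and 1 of 3 SPRY2 starts on the minus strand at chr13:80340109-80340358. Capitals mark a match to the ETS core GGAAGT on either strand, the AP-1 site TGANTCA or the CRE TGACGTCA.
DUSP6: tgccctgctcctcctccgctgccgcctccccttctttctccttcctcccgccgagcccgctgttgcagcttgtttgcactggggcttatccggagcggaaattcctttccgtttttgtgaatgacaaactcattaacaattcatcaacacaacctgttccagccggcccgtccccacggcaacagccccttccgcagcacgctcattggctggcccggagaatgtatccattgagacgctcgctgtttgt
SPRY4: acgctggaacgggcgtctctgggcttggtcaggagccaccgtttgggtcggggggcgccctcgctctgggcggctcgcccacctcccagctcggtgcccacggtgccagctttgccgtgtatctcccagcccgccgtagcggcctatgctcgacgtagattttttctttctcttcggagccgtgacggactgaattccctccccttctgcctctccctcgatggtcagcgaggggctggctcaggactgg
SPRY2: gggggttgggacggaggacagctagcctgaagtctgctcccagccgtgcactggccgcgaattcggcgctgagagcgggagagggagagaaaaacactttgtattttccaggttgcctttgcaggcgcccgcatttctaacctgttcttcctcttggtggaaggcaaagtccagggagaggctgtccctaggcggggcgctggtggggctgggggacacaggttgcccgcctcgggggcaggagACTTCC
No match to these letters lay in the DUSP6 or SPRY4 window. The SPRY2 window held the ETS core on the opposite strand in its last 6 bases. It was the 1 SPRY2 window of 3 with any match, so this contrast depends on which window is printed. Across 13 windows of 8 members in the RefSeq table, the ETS core lay in 2 windows, 1 each of SPRY2 and SPRED3, against 19.5% of the 35116 windows of the table. The AP-1 letters lay in 1 window, of SPRED3, against 6.57% of all windows, and the CRE in 0, against 1.65%. G and C made up 57.2% of the DUSP6 window and 65.6% of the SPRY4 window, against a median of 58.0% over all windows. A match to a short motif describes the sequence and is not a site.

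The depth of the arrays bounds what can be read from the dim members. The scanner software marked 67.65% to 73.59% of the 58717 spots on an array as well above background, and no spot was saturated. Signals were set on a common scale by taking log2 and subtracting the 75th percentile of each array, which lay at signals of 978 to 1390. UNC50 checked the labels. Its signal was 5010 with shR-MOCK, 1050 under shR-467, 853 under shR-554 and 947 under shR-749, which on the common scale was 24.0%, 13.7% and 18.7% of the mock array. The mean log2 difference was -2.45 ± 0.40 (SD, n = 3), and every hairpin array lay below the single mock array. Markers of hepatoma cells were also higher in part. All 10 were kept, and 4 of them stood at least 1.5-fold above the mock array on average, where 2.29% of all genes did. These were APOA1, TTR, FGB and, named after its values were seen, AFP. The summed signal of all 10 was 1.11 to 1.36 times that of the mock array. It mostly follows ALB, APOA2 and AHSG, at 244300, 233800 and 147500 on the mock array. Among markers of other cell types, 7 of 10 were kept and none reached 1.5-fold on average, while COL1A1, COL3A1 and KRT5 were too dim to be kept. The summed signal of the 7 kept was 0.957 to 1.31 times that of the mock array. That sum mostly follows CD68 and CD14, at 3309 and 1750 on the mock array, where the next brightest, PECAM1, gave 137.7. The part of these shifts in the results was not tested.

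**Figure D1:**
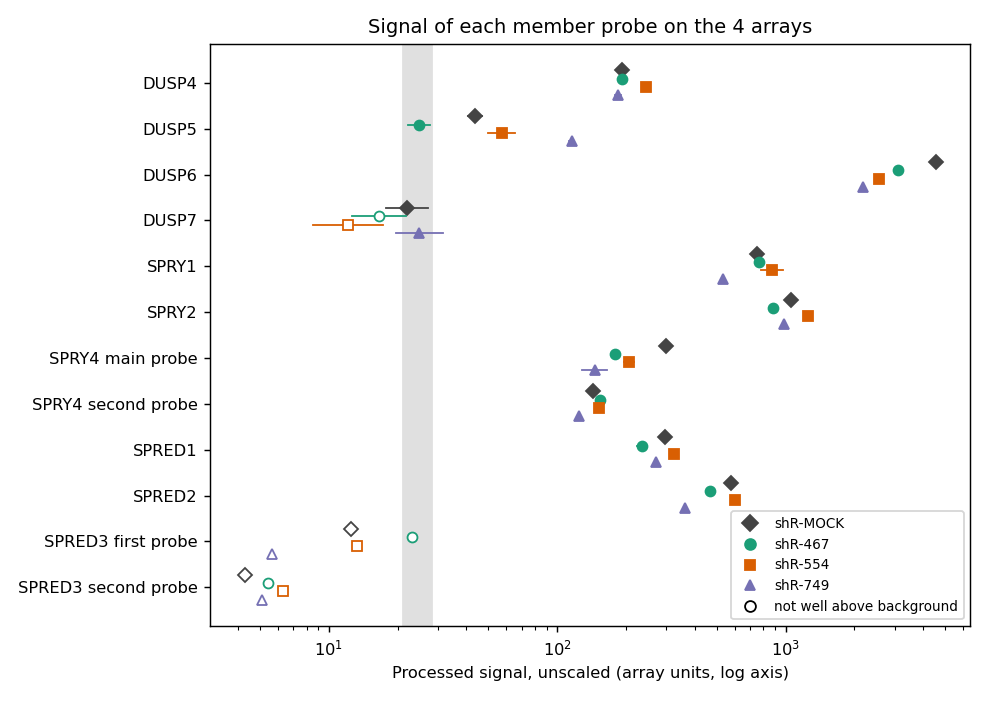
Signal of the 12 member probes on the 4 arrays, on a log axis and before scaling; points are means over the spots of a probe, lines join the lowest and highest spot, open points were not well above background on the array, and the grey band spans the lowest signals well above background, 21.2 to 28.3. DUSP6 was brightest on the mock array, at 4545, and both SPRED3 probes and DUSP7 lay at or under the band.

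DUSP6 and, on the main of its 2 probes, SPRY4 were lower with every hairpin. They were the 2 members that stood at least 1.5-fold below the mock array on average. The second SPRY4 probe lay near the mock array. No member stood at least 1.5-fold above it. DUSP5 was the member on which the hairpins differed most, and the remaining members that could be measured on all arrays lay within 1.5-fold on average. Over all 25149 genes, 7.69% were at least 1.5-fold lower on average and 2.29% at least 1.5-fold higher, so 2 of 9 members lower is 22.2% beside 7.69%, and 0 of 9 higher stands beside 2.29%. The excess of lower genes, 1935 against 575 higher, was 283 against 256 after normexp background correction with quantile normalization. The filter kept genes detected on the mock array alone, but not genes detected only on some hairpin arrays, so 7.69% includes genes dim under the hairpins. When detection was required on every array, 21498 genes were left, and the counts were 629 lower against 504 higher. DUSP6 and SPRY4 were then still the lower members, 2 of 8. With so few members, 1 gene more or less moves the members' share by more than the whole background share.

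DUSP6 encodes a cytoplasmic phosphatase that acts on ERK almost alone. Its probe at chr12:89742144-89742203 gave a signal of 4545 with shR-MOCK, and of 3113 under shR-467, 2575 under shR-554 and 2175 under shR-749. All 3 hairpin arrays lay below the single mock array, as they did for 20.6% of all genes. On the common scale the signals were 78.4%, 45.7% and 47.4% of the mock array, or log2 differences of -0.35, -1.13 and -1.08. shR-467 sat apart from the other hairpins, and the UNC50 signal with it was also the highest of the 3. Whether DUSP6 followed the amount of UNC50 was not tested, since each hairpin had 1 array. The mean was -0.85 ± 0.44 (SD, n = 3), 1.81-fold lower. Both spots of the probe were well above background on every array and differed by at most 0.11 log2 units within any of them, a gap that holds no variation between cultures. In limma, which assumed the lone mock array to vary as the hairpins did, the 95% confidence interval ran from -1.63 to -0.07, and the Benjamini-Hochberg adjusted p = 0.9998. In bulk RNA, fewer cells with the transcript and less of it per cell cannot be told apart. DUSP6 ranked 289 of 25149 genes by limma, and 3.52% of genes had a lower mean difference.

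SPRY4 encodes a Sprouty protein that blocks the step from receptor to RAS and RAF. Its main probe, the brighter of 2, lies at chr5:141690571-141690630 and gave 300.5 on the mock array, 180.0 under shR-467, 207.2 under shR-554 and 145.9 under shR-749. Every hairpin array lay below the mock array, and the scaled signals were 68.6%, 55.6% and 48.1% of it. The log2 differences of -0.54, -0.85 and -1.06 averaged -0.82 ± 0.26 (SD, n = 3), 1.76-fold lower. The 2 spots differed by at most 0.36 log2 units within any array. The limma interval ran from -1.57 to -0.06, with an adjusted p = 0.9998. SPRY4 ranked 298 of 25149, and 3.93% of genes had a lower mean difference.

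The second SPRY4 probe, at chr5:141694487-141694546, gave other values. Its single spot gave 144 on the mock array, 154 under shR-467, 153 under shR-554 and 124 under shR-749, log2 differences of 0.29, -0.22 and -0.23. The mean was -0.05 ± 0.30 (SD, n = 3), with the mock array inside the range of the hairpins. The spots of both probes were marked well above background on every array. When the probes of a gene were averaged, SPRY4 stood at -0.43 and no longer reached 1.5-fold. What the 2 probes read differently was not tested, so the lower SPRY4 signal is a result of 1 probe.

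**Figure D2:**
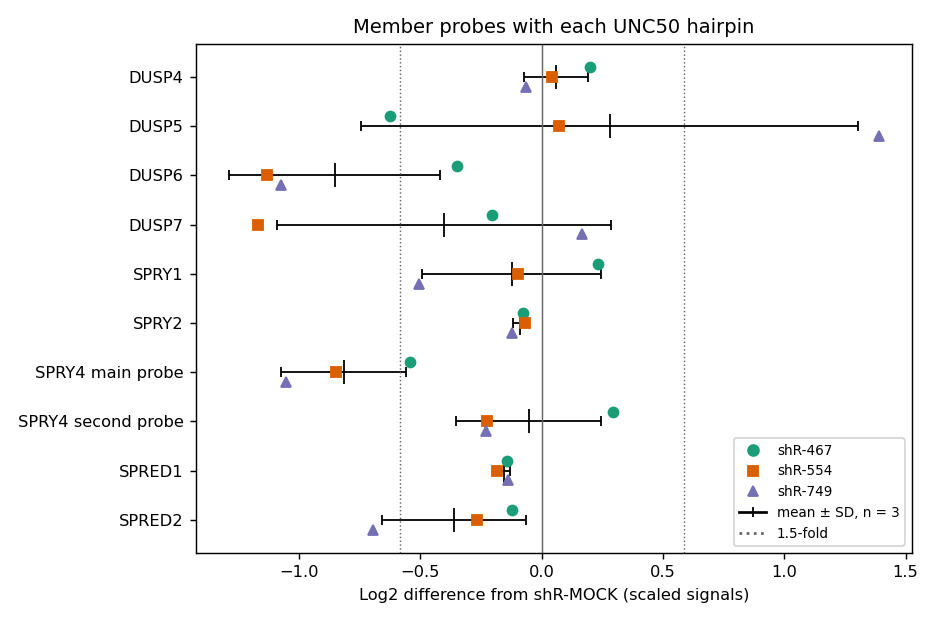
Log2 difference of each kept member probe from the mock array with each of the 3 UNC50 hairpins; the bars give the mean ± SD over the 3 hairpins, and the dotted lines mark 1.5-fold, 0.585 log2 units. DUSP6 and the main SPRY4 probe lie left of 0 with every hairpin, the second SPRY4 probe straddles 0, and DUSP5 runs from -0.62 to 1.39.

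None of the 9 members reached 1.5-fold with all hairpins in either direction. Of all genes, 1.23% did so downward and 0.537% upward. DUSP6 missed it with shR-467, at -0.35, and SPRY4 with the same hairpin, at -0.54 against the limit of 0.585, which it passed with median scaling in place of the 75th percentile. Counted by hairpin, shR-467 had 1 member at least 1.5-fold lower, DUSP5, where 6.77% of genes were lower, and 0 higher, where 7.29% of genes were. With shR-554, DUSP6, DUSP7 and SPRY4 were at least 1.5-fold lower, 33.3% of the kept members beside 16.0% of genes, and 0 were higher beside 4.41%. DUSP7 was not well above background with shR-554, and among genes well above background on every array 2 of 8 members, DUSP6 and SPRY4, were lower with this hairpin, 25.0% beside 8.33% of 21488 genes. With shR-749, DUSP6, SPRY4 and SPRED2 were lower, again 33.3%, beside 10.4% of genes, and DUSP5 was higher, 11.1% beside 5.41%. The hairpins share the mock array, so these counts are not independent of each other.

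DUSP7 encodes the closest relative of DUSP6 among cytoplasmic ERK phosphatases, and it was too dim to set beside DUSP6. Its signal was 22.0 with shR-MOCK, 16.6 under shR-467, 12.1 under shR-554 and 24.9 under shR-749. It was well above background in 1 of 2 spots with shR-MOCK and shR-749 and in none with the other hairpins, and it passed the filter through the mock array alone. The log2 differences were -0.20, -1.17 and 0.17, a mean of -0.40 ± 0.69 (SD, n = 3). Without shR-749 the mean was -0.69, past 1.5-fold, and it turned to 0.14 with signals below detection raised to the lowest detected one of each array. The 2 spots differed by up to 1.02 log2 units within 1 array. The probe has no position in the array annotation.

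Neither nuclear phosphatase was lower with every hairpin. DUSP5 removes phosphate from nuclear ERK and is itself a transcript induced by ERK. Its probe at chr10:112270900-112270959 gave 43.8 with shR-MOCK, 24.8 under shR-467, 57.2 under shR-554 and 116 under shR-749. The mock array lay inside the range of the hairpins. The log2 differences were -0.62, 0.07 and 1.39, a mean of 0.28 ± 1.02 (SD, n = 3), the widest spread of any kept member. The limma interval ran from -1.52 to 2.08 (adjusted p = 0.9998). With shR-467 only 1 of 2 spots was well above background, so the low value there rests on a signal near the limit of detection. The value with shR-749 does not, since both spots, at 113 and 119, were well above background. Without shR-467 the mean was 0.73, past 1.5-fold, and without shR-749 it was -0.28.

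DUSP4, an inducible nuclear phosphatase of ERK and of other MAP kinases, stayed close to the mock array. At chr8:29194382-29194441 its signals were 192.4 on the mock array, then 192.8, 245.9 and 185.4 in the order of hairpins used so far. On the common scale these were 114.8%, 103.0% and 95.54% of the mock array, log2 differences of 0.20, 0.04 and -0.07. The mean was 0.06 ± 0.13 (SD, n = 3), with a limma interval of -0.62 to 0.74 (adjusted p = 0.9998), so a 1.5-fold difference in either direction lay inside the interval.

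The other Sprouty genes lay within 1.5-fold of the mock array with each hairpin. SPRY2, the Sprouty protein best studied as a target of growth factors, was read at chr13:80910622-80910681 with signals of 1060, 876.9, 1255 and 982.5 in the same order of arrays. After scaling these were 94.76%, 95.4% and 91.88% of the mock array. The mean log2 difference was -0.09 ± 0.03 (SD, n = 3), 1 of the 2 narrowest spreads among the members. All 3 values lay below the mock array, yet the limma interval crossed 0 (adjusted p = 0.9998).

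SPRY1, a Sprouty protein known for its part in kidney and endothelial growth factor signals, followed the hairpins unevenly. It was read at chr4:124324494-124324553 with 749.4 on the mock array, 768.5 under shR-467, 869.5 under shR-554 and 533.4 under shR-749. The log2 differences were 0.23, -0.10 and -0.50, and the mock array lay inside their range. The mean was -0.12 ± 0.37 (SD, n = 3; limma adjusted p = 0.9998).

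SPRED proteins bind neurofibromin and bring it to RAS at the membrane. SPRED1, the member mutated in Legius syndrome, was read at chr15:38645760-38645819 with 296.5 for shR-MOCK and 234.7, 324.0 and 271.5 with the hairpins. Scaling removed most of the spread, and 90.67%, 88.05% and 90.76% of the mock signal remained. The mean log2 difference of -0.15 ± 0.02 (SD, n = 3) was small but nearly equal with every hairpin. SPRED1 was the 1 member to pass the methods' t-test at the study's threshold before adjustment, as 646 of 25149 genes did. That test set the 3 hairpin arrays against the mock array with the hairpins' own spread, which was narrow for SPRED1. SPRED1 did not pass after Benjamini-Hochberg adjustment or in limma (adjusted p = 0.9998). An exact permutation test of 3 arrays against 1 cannot go below p = 0.25. The 2 spots of the probe differed by up to 0.14 log2 units within an array.

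SPRED2, a paralog with the same role, was graded across the hairpins. Its probe at chr2:65538851-65538910 gave 579.3 with shR-MOCK, 464.4 under shR-467, 597.6 under shR-554 and 361.0 under shR-749, or 91.8%, 83.12% and 61.76% of the mock array after scaling. All hairpin arrays lay below the mock array, and shR-749 alone passed 1.5-fold. The mean was -0.36 ± 0.30 (SD, n = 3), with a limma interval of -1.07 to 0.35 (adjusted p = 0.9998).

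SPRED3 could not be measured. Its 2 probes, at chr19:38882588-38882647 and chr19:38885057-38885116, gave signals of 5.62 to 23.2 and of 4.29 to 6.28 over the 4 arrays, and neither was well above background on any array. No fold is given for it.

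Read as a group, 5 of the 9 kept members lay below the mock array by some amount with all hairpins, namely DUSP6, SPRY2, SPRED1, SPRED2 and, on its main probe alone, SPRY4. That is 55.6%, where 20.6% of all genes did so, and none lay above it with all hairpins, where 17.5% of all genes did so. All 3 differences of a gene are taken from the same mock array. The median of the members' mean differences was -0.16, against -0.03 over all genes. DUSP6 and SPRY4 were the 2 members with a limma p under 0.05 before adjustment, where 0.712% of genes were lower at that level, and 0 members passed after adjustment, as did 0.0% of genes. SPRY4 lost this level in 5 of 12 alternatives, with low signals raised, without a filter, without shR-554, without shR-749 and with its probes averaged, where the limma p before adjustment ran from 0.0503 to 0.22, and DUSP6 lost it in 0 of 12, with a highest value of 0.0495. The smallest limma adjusted p of any gene was 0.613, that of UNC50 itself. Even the knockdown target did not pass, so an adjusted p near the top of the scale says little about a member. At p under 0.05 before adjustment limma gave 381 genes and the methods' t-test 646.

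**Figure D3:**
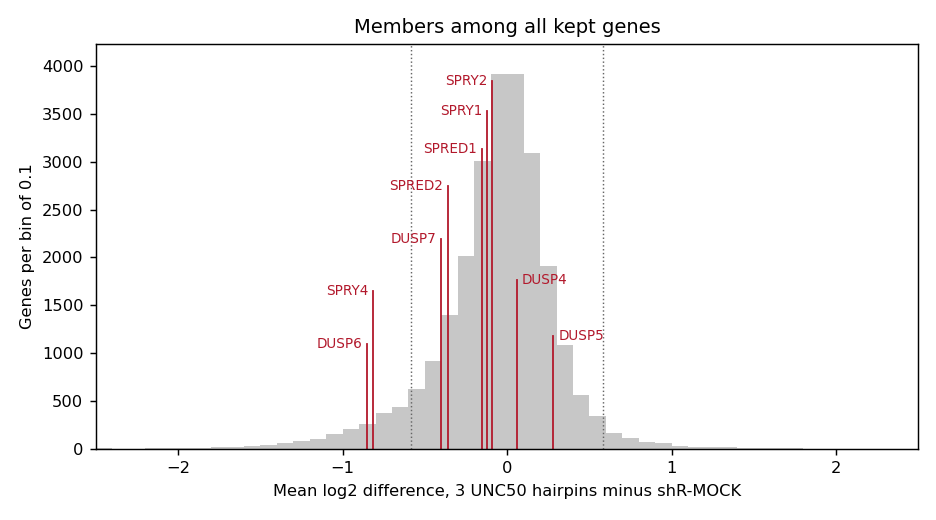
Number of genes per bin of 0.1 in the mean log2 difference of the 3 hairpins from the mock array, for 25149 genes (35 lie outside the plotted range), with the 9 kept members as red lines whose height has no meaning; dotted lines mark 1.5-fold. DUSP6 and SPRY4 lie in the left tail and the other 7 members inside the dotted lines.

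The 3 genes whose pattern over the hairpins lay nearest to that of DUSP6, by Euclidean distance over the 3 log2 differences among 21487 other genes well above background on all arrays, were ARHGAP11A, ZNF528 and RTP4. ARHGAP11A, a gene of dividing cells, differed by -0.53, -1.11 and -1.14 in the order of hairpins, a distance of 0.195. ZNF528, a zinc finger gene, was at a distance of 0.207, and RTP4, an interferon-induced gene, at 0.211. No member was among the 3. Over 3 arrays that share 1 control, such likeness describes these arrays only.

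The rest of the pathway gives the setting of the members. The cascade itself, 25 genes from the receptors through RAS, RAF and MEK to ERK and its RSK kinases, was kept in full. In either direction 0 of its genes reached 1.5-fold on average, beside 7.69% of all genes lower and 2.29% higher. Its median mean difference was -0.04. EGFR, the receptor, read from 1 of its 3 probes, differed by 0.27, -0.26 and 0.14 in the same order, and the mock array lay inside that range. MAPK3, which encodes ERK1, differed by -0.10, -0.02 and -0.60, all below the mock array, as 20.6% of all genes were. With shR-554 it lay above the median of all genes, -0.041. By any amount with every hairpin, 4 of the 25 genes of the cascade were lower and 5 higher.

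Of 6 other MAP kinase phosphatases, all kept, 1 was at least 1.5-fold lower on average and none higher, beside 7.69% and 2.29% of all genes. Their median was 0.00. The lower gene was DUSP2, a nuclear phosphatase of lymphoid cells, named after its values were seen. It was dim, with signals of 33.7, 21.8, 12.9 and 15.6 in the order of arrays used above, and well above background only with shR-MOCK and shR-467, so that it was kept through the mock array. Its mean difference of -1.09 ± 0.63 (SD, n = 3; limma adjusted p = 0.9998) became -0.40, inside 1.5-fold, with signals below detection raised to the lowest detected one. DUSP1, the immediate early phosphatase induced by stress and by ERK, differed by 0.01, 0.49 and 0.56. Thus with shR-554 and shR-749 DUSP1 stood above the mock array while DUSP6 stood below it. Among 13 other restraints of RAS and ERK, such as neurofibromin, ERRFI1 and CBL, 0 reached 1.5-fold on average, beside the same shares of all genes. Their median was -0.14, with a range of -0.34 to 0.48.

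Transcripts induced by ERK outside the phosphatase, Sprouty and SPRED families were read as well. Of 12 listed, 11 were kept, EPHA4 being too dim. Of these, 2 were at least 1.5-fold lower on average, CCND1 and ETV4, and none higher, beside 7.69% and 2.29% of all genes. By any amount, 5 of the 11 were lower with every hairpin, ETV1, ETV4, CCND1, IER3 and MYC, and 0 higher, beside 20.6% and 17.5% of all genes. The names ETV1, IER3 and MYC were chosen once their values had been seen. The median of the list was -0.19. With shR-554, ETV4 at -0.03 and IER3 at -0.05 lay near the median of all genes, -0.041. With shR-749, MYC at -0.05 lay near the median of all genes, -0.055. The same count was 4 lower and 3 higher among the 13 other restraints of RAS and ERK. It was 1 lower and 1 higher among the 6 other MAP kinase phosphatases. CCND1, the cyclin that carries cells through G1 and a gene the study itself picked from these arrays, gave 465.9 with shR-MOCK, 216.7 under shR-467, 180.1 under shR-554 and 187.0 under shR-749. It was at least 1.5-fold lower with every hairpin, as no member was, with a mean of -1.31 ± 0.39 (SD, n = 3; limma adjusted p = 0.9998). The count of this list is not independent evidence of its direction for that reason.

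The ETS factors of the PEA3 group, which are induced by ERK alongside DUSP6 and SPRY4, were lower with every hairpin in 2 of 3 cases, beside 20.6% of all genes. Those 2, ETV1 and ETV4, were already counted in the list above and add nothing to its count. ETV1, read from 1 of its 4 probes, differed by -0.18, -0.38 and -0.62, a mean of -0.39 ± 0.22 (SD, n = 3). ETV4 differed by -0.91, -0.03 and -1.28 in the order of hairpins, a mean of -0.74 ± 0.64 (SD, n = 3), and ETV5 by -0.19, 0.21 and 0.24. ETV4 was close to the mock array with shR-554, the hairpin with which DUSP6 was lowest, and far below it with shR-467, with which DUSP6 was nearest to the mock array. PHLDA1, an immediate early gene, differed by -0.37, 0.39 and 0.40. EGR1, the zinc finger factor that ERK induces through ELK1, differed by -0.19, 0.21 and -0.73. The mock array lay inside the range of the hairpins for ETV5, PHLDA1 and EGR1.

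**Figure D4:**
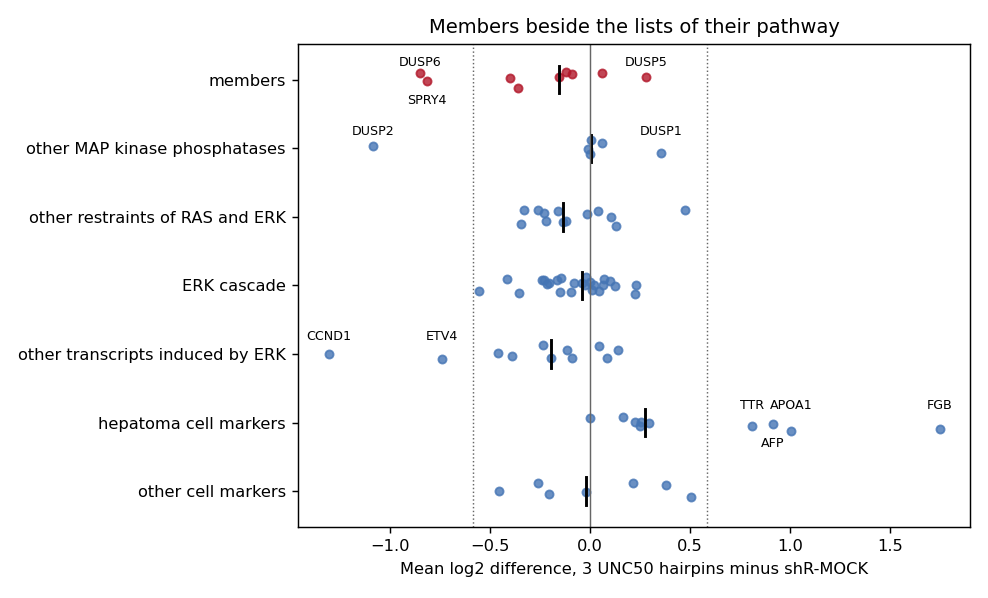
Mean log2 difference of the 3 hairpins from the mock array for each kept gene of the members and of 6 lists; short black lines give medians and dotted lines mark 1.5-fold. The 25 genes of the cascade lie inside the dotted lines, as do all members except DUSP6 and SPRY4, and 4 hepatoma cell markers lie to the right of them.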

How the data were processed

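Total RNA of the 4 Hep3B samples was hybridised to 1-colour Agilent arrays, all on 1 slide and in 1 scan. Per the file headers and the submitters' processing notes, the authors extracted spot intensity with Agilent Feature Extraction 10.7.1.1, whose processed signal has the background subtracted, and they deposited a table of processed log2 values, used here as an alternative only. Groups came from the labels. Marked outlier spots were left out, each array's 75th percentile over non-control spots was subtracted from its log2 signals, and spots of a probe were averaged. A probe counted as well above background on an array where at least 50% of its spots did, and was kept when this held on the mock array or on all 3 hairpin arrays. A gene was read from its kept probe with the highest mean. Values of further probes are given for members only. Gene names and hg19 probe positions follow the array design. Exon and UTR annotation was not used here.

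A gene was counted as changed when the mean of its 3 differences reached 1.5-fold, and separately when every hairpin did. limma 3.58.1 (lmFit, eBayes with trend, 2 residual and 4.98 prior degrees of freedom) compared the groups over all 25149 genes in R 4.3.3, with Benjamini-Hochberg adjustment. The number of arrays limits the precision. Genes named beyond the members were UNC50, list genes at least 1.5-fold changed with every hairpin, EGFR, MAPK3, ETV4, ETV5, PHLDA1, EGR1 and DUSP1, and the 3 genes nearest to DUSP6, and 1 further gene that the rule lists by name is not reported here. Members and lists were chosen with earlier results of these data known. Alternatives were other scalings, normexp (offset 50) with quantile normalization, the deposited table, raised low signals, other filters, probe averaging, a 2-fold limit, the methods' t-test and leaving out each hairpin. The scripts were tested on simulated data.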

Additional observations from a re-analysis of the deposited data

How the results depend on the processing

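With median scaling, 1 member, SPRY4, was at least 1.5-fold lower with every hairpin, against 0 as reported. With the mean over the probes of a gene, 1 member was at least 1.5-fold lower on average, since SPRY4 came to -0.43, and with a 2-fold limit 0 were. On the second SPRY4 probe alone, an alternative chosen after seeing the data, SPRY4 was at -0.05. Leaving out each hairpin in turn gave 0 to 2 members lower with every remaining hairpin, the 2 being DUSP6 and SPRY4 without shR-467, 2 to 3 lower on average, with DUSP7 added without shR-749, and 0 to 1 higher on average, DUSP5 without shR-467. Of 174 alternative values for the members' counts and means, 7 moved by more than 1.5 times the count or by more than the SD over hairpins, and no mean past 1.5-fold turned sign. DUSP5 without shR-467 and DUSP7 without shR-749 passed 1.5-fold with a shift inside that SD. DUSP6 lay between -1.10 and -0.71 in all 12 alternatives. Its mean stayed at -0.85 with raised low signals, marked spots kept, other filters or probe averaging, which do not act on its single bright probe. The same steps left many of the 174 values unchanged, so the count of moved values says little about stability. Every member kept an adjusted limma p of at least 0.9997 in all alternatives that were tested.

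Means near 0 changed sign under some alternatives, DUSP4 from -0.01 to 0.12, DUSP5 from -0.28 to 0.73, DUSP7 from -0.69 to 0.14 and SPRY1 from -0.30 to 0.07.

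Over all genes, 1935 lower and 575 higher on average became 283 and 256 with normexp, 919 and 617 with raised low signals, 629 and 504 among probes detected on every array, 3368 and 1997 without a filter, and 574 and 112 at 2-fold. Leaving out a hairpin gave 1486 to 2915 lower and 714 to 916 higher. A slide or scan block could not be fitted, as all arrays share 1 slide and 1 scan. No paired analysis was possible because the single mock array carries no replicate number shared with 2 or more hairpins.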
